A study of Rattus norvegicus with 8 samples.

Results

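Integrins are the receptors by which cells hold the matrix, and 10 genes of their subunits were examined in annulus fibrosus cells (AFCs), the cells of the outer ring of the intervertebral disc. The 10 genes were taken by their symbols from the 31699 rows of the deposited table and set in classes by what their receptors bind. Itga1, Itga2 and Itga11 encode α subunits that bind collagen, Itga3 one that binds laminin, and Itga5, Itga8 and Itgav α subunits that bind ligands with the RGD (arginine-glycine-aspartate) sequence. Itgb3 and Itgb5 encode the β partners of Itgav in RGD-binding receptors, and Itgb1 encodes the β subunit that all of these α subunits can use. The AFCs came from discs of Sprague Dawley rats, pooled over several animals for each isolation, and were cultured in medium with serum and used at the third passage. All samples received lentivirus and cyclic mechanical stretch (CMS), a condition under which AFCs undergo apoptosis. The 4 samples labelled Lv-Ctrl were treated with the empty vector pLVX-shRNA-Puro and the 4 labelled Lv-Piezo1 with the same vector carrying a short hairpin RNA against the mechanosensitive channel Piezo1, so that the control cells carry the virus too. The study's methods describe its rats as males of 3 months where they describe the animal model, and do not repeat this for the isolation. No unstretched sample was analysed here.

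An integrin is a pair of 1 α and 1 β subunit, each spanning the membrane once. The outer part of the pair sets which matrix protein is bound, while the short inner tail of the β subunit recruits talin, kindlin and further linkers that couple the receptor to actin. In the annulus fibrosus, a tissue of layered collagen fibres under tension, this coupling is how cells feel and pull on the matrix. Because an α subunit reaches the surface only with a β partner, the transcript of 1 subunit does not give the amount of a receptor.

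The unit is TPM, a transcript abundance scaled for transcript length and library total, so that levels of different genes can be set side by side. The difference between the groups is given as a log2 fold change of log2(TPM + 1), samples labelled Lv-Piezo1 minus samples labelled Lv-Ctrl, from limma over the 13103 genes with a mean of at least 1 TPM. A gene is said to have risen or fallen where its p, adjusted by Benjamini-Hochberg, was below 0.05, and to have been called when the log2 fold change was also at least 1 in size, the limit of the study's methods. By the first rule 58.2% of all tested genes differed (41.9% higher and 16.3% lower), and by the second 7.67% (4.91% higher and 2.76% lower). After median-ratio scaling of the samples the shares were 55.9% and 7.49%. The groups as a whole were thus far apart, and a difference of an integrin gene is to be read against these shares. The median log2 fold change of all tested genes was 0.14, and the same scaling brought it to -0.02. For this reason the fold changes of the members are also given after that scaling.

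At the level of RNA the targeted gene went against the label. Piezo1 had 30.1 ± 2.67 TPM under the label Lv-Ctrl and 39.4 ± 1.75 TPM under the label Lv-Piezo1 (SD, n = 4 each). Its log2 fold change was 0.38, and 0.21 after median-ratio scaling. The study reports that it verified the knockdown of Piezo1 by Lv-Piezo1, which these RNA values do not show. Its methods describe protein assays of Piezo1 and no RNA assay other than the sequencing, so the measures may differ. Every direction below is therefore that of the labels. Of the markers of annulus fibrosus, Col1a1, Col1a2, Dcn and Lum, which encode fibre collagens and small proteoglycans, were abundant in both groups, with means from 422 TPM (Lum) to 3282 TPM (Col1a1) under the label Lv-Ctrl and from 435 TPM (Lum) to 5835 TPM (Col1a1) under the label Lv-Piezo1, whereas the tendon marker Tnmd was at or near 0 and Col2a1 stayed below 1 TPM. Of the 9 tested annulus markers 5 rose and 3 fell, with Thbs4 called higher (56.4 to 529 TPM) and Dcn called lower (1456 to 519 TPM), and after scaling 4 fell. The 11 annulus markers summed to 7158 to 8016 TPM and 10930 to 11655 TPM. The 12 markers of contractile smooth muscle all rose (11 of them after scaling), 9 of them by a call, and their summed level went from 779.9 to 884 TPM under the label Lv-Ctrl to 5306 to 5410 TPM under the label Lv-Piezo1. Among these, Myocd (0.82 TPM on average under the label Lv-Ctrl) entered the test only through the group in which it was high. Pericyte markers, 7 genes, summed to 519.8 to 561 TPM under the label Lv-Ctrl and 276 to 293 TPM under the label Lv-Piezo1, with Rgs5 below 1 TPM. Of 5 tested pericyte markers 3 rose (2 after scaling), Mcam by a call. The other 2 fell by a call, Kcnj8 (326 to 39.1 TPM) and Abcc9 (73.7 to 12.3 TPM), and the fall of Kcnj8 was larger than that of the sum. The 8 macrophage and leukocyte markers summed to 21.0 to 22.8 TPM and 36.2 to 41.4 TPM. Of these, 6 stayed below 1 TPM in every sample, with C1qa and Cd3e at 0, and Cd68 was called higher. Cd68 too (0.2 to 2.08 TPM under the label Lv-Ctrl, 0.955 TPM on average) entered the test only through the group in which it was high. Endothelial and platelet markers stayed below 1 TPM in every sample, and of the 4 nucleus pulposus markers with a row Tbxt, Shh and Noto were at 0 and Cd24 was called higher (3.79 to 21.9 TPM on average). The part of other cell types in the values below was not tested, and in bulk RNA fewer cells of a type and less RNA per cell cannot be told apart. The replicate numbers did not pair the samples, although by the study's methods the cells of 1 isolation received the different treatments and counted as 1 repeat, so that the groups may share 4 isolations. Which samples shared an isolation was not given in the sources used here, and p-values measure the spread between these samples.

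The promoters of 4 members are shown as examples of genes that rose (Itga5, Itga11 and Itgb1) or fell (Itga8) under both scalings. Each line gives the 250 bases before the transcription start in RefSeq on assembly GRCr8, 5′ to 3′ on the gene's own strand, with the word GGAATG in capitals, the core that TEAD factors recognise.
Itga5 (chr7:136381306-136381555, minus strand): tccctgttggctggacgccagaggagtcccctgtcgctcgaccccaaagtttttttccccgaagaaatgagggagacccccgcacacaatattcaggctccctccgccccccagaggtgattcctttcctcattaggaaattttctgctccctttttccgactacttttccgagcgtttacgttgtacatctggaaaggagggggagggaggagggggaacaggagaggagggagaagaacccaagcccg
Itga11 (chr8:72041182-72041431, plus strand): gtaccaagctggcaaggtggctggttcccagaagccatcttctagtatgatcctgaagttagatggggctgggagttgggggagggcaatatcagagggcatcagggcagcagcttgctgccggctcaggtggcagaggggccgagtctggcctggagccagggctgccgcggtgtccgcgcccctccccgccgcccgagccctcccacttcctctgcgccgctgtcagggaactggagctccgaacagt
Itgb1 (chr19:73602027-73602276, plus strand): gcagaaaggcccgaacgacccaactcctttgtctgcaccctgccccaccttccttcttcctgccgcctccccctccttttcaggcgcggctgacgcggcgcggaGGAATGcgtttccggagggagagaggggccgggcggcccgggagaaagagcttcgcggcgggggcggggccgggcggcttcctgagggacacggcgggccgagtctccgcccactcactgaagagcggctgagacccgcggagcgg
Itga8 (chr17:80410634-80410883, minus strand): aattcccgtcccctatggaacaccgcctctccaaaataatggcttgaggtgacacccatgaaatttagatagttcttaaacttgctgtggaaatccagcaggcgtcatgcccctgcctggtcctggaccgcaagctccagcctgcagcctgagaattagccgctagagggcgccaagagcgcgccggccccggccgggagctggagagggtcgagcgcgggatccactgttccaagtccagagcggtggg
A window was found by symbol for 9 of the 10 members. The word GGAATG, searched on both strands, was in 2 of the 9 windows, those of Itgb1 (146 to 141 bases before the start) and Itga3 (122 to 117 bases before the start), and in 12.1% of all 33469 windows of this length. The CArG box, which serum response factor recognises in smooth muscle genes, was in 0 of the 9 windows and in 1.5% of all windows, and the AP-1 word TGANTCA in 0 of the 9 and in 6.34%. None of these words overlapped another, and a match or its absence describes the letters of this window only. The windows differed in base composition, from 54.4% G and C at Itga1 to 74.4% at Itgb5, against a median of 51.2% over all windows.

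Among the collagen-binding subunits, both α subunits that were well expressed rose under the label Lv-Piezo1. Itga11 (ENSRNOG00000006723), whose receptor with Itgb1 binds fibre-forming collagens, measured 101, 97.7, 76.6 and 87.4 TPM under the label Lv-Ctrl (replicates 1 to 4) and 142, 137, 149 and 152 TPM under the label Lv-Piezo1. The groups did not overlap, and the lowest sample labelled Lv-Piezo1 stood well above the highest labelled Lv-Ctrl. The log2 fold change of Itga11 was 0.68 (standard error, SE, 0.08, limma adjusted p = 1e-04), and after median-ratio scaling it was 0.50. Itga1 (ENSRNOG00000053550), the subunit of the main receptor for the network collagen of basement membranes, had 42.7, 39.4, 30.1 and 36.0 TPM under the label Lv-Ctrl and 55.3, 51.7, 58.6 and 61.0 TPM under the label Lv-Piezo1. Again the groups did not overlap, with a log2 fold change of 0.61 (SE 0.10, limma adjusted p = 7.1e-04) and of 0.43 after scaling. The level of Itga11 was 2.45 ± 0.07 times that of Itga1 under the label Lv-Ctrl and 2.57 ± 0.07 times under the label Lv-Piezo1 (SD, n = 4 each), and the ranges of this ratio overlapped. Itga2 (ENSRNOG00000058111), the third collagen-binding member, was barely expressed. It had 0.12, 0.1, 0 and 0.04 TPM under the label Lv-Ctrl and 0.22, 0.23, 0.52 and 0.44 TPM under the label Lv-Piezo1, below the limit for testing. The groups of Itga2 did not overlap (p = 0.029 by an exact two-sided permutation, the least that 4 samples against 4 can give), at a level at which a TPM rounded to 2 decimals says little.

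The laminin-binding member did not pass the test on the deposited values. Itga3 (ENSRNOG00000004276), the most abundant α subunit in both groups, measured 224.6, 220.45, 193 and 210.1 TPM under the label Lv-Ctrl and 197, 193, 199.9 and 217 TPM under the label Lv-Piezo1. The range of the second group lay wholly within that of the first. Its log2 fold change was -0.07 with a 95% confidence interval of -0.20 to 0.06 (limma adjusted p = 0.32), so a rise or fall of the size seen for Itga11 lies outside the interval. After median-ratio scaling Itga3 was lower, with a log2 fold change of -0.25 (SE 0.04, limma adjusted p = 4.1e-04) and no overlap of the scaled values. Quantile normalization, which sets values by rank within a sample, also brought the median of all genes near 0 (-0.004). With it Itga3 had a log2 fold change of -0.09 and did not pass (limma adjusted p = 0.21).

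The 3 RGD-binding α subunits went different ways. Itga5 (ENSRNOG00000057451), the α subunit of the fibronectin receptor, had 103, 103, 87.9 and 99.4 TPM under the label Lv-Ctrl and 142, 139, 143 and 155 TPM under the label Lv-Piezo1. The groups did not overlap, and the log2 fold change of 0.56 (SE 0.06, limma adjusted p = 3.9e-05) stayed at 0.38 after scaling. Itga8 (ENSRNOG00000016538), whose receptor with Itgb1 binds nephronectin, fibronectin and tenascin-C and is common in smooth muscle and other contractile mesenchymal cells, moved the other way. It measured 93.6, 93.9, 72.5 and 86.4 TPM under the label Lv-Ctrl and 62.2, 60.9, 66.7 and 72.9 TPM under the label Lv-Piezo1. The ranges overlapped only between replicate 3 labelled Lv-Ctrl and replicate 4 labelled Lv-Piezo1. The log2 fold change of Itga8 was -0.39 (SE 0.09, limma adjusted p = 0.0047, exact two-sided permutation p = 0.057), and after scaling it was -0.57 with no overlap. This fall stood beside the rise of the contractile markers named above. The ratio of Itga5 to Itga8 within a sample, which no scaling of the sample can alter, went from 1.14 ± 0.05 to 2.21 ± 0.09 (SD, n = 4 each), with 1.10 to 1.21 under the label Lv-Ctrl and 2.13 to 2.29 under the label Lv-Piezo1.

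Itgav (ENSRNOG00000004912), the α subunit shared by the receptors for vitronectin, osteopontin and latent TGF-β, did not pass the test under either scaling. It had 39.2, 42.2, 28.2 and 36.7 TPM under the label Lv-Ctrl and 36.6, 36.0, 39.8 and 43.98 TPM under the label Lv-Piezo1, with overlapping groups. Its log2 fold change was 0.10 with a 95% confidence interval of -0.16 to 0.37 (limma adjusted p = 0.48), and it was -0.07 after scaling (interval -0.29 to 0.14). Replicate 3 labelled Lv-Ctrl decided the sign, since the value was -0.01 without that sample. Of the RGD-binding α subunits among the members Itgav was the lowest in both groups.

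The β subunits changed order. Itgb1 (ENSRNOG00000010966) measured 477, 479.8, 386 and 461 TPM under the label Lv-Ctrl and 632, 616, 666 and 709.6 TPM under the label Lv-Piezo1, without overlap. Its log2 fold change was 0.54 (SE 0.07, limma adjusted p = 2.3e-04) and 0.36 after scaling. Itgb5 (ENSRNOG00000001795), the β subunit of a vitronectin receptor, had 569.8, 583, 579 and 566 TPM under the label Lv-Ctrl and 550, 545, 556 and 542 TPM under the label Lv-Piezo1, the narrowest spread of any member relative to its level. The groups did not overlap, but the step was small, with a log2 fold change of -0.07 (SE 0.02, limma adjusted p = 0.039) that missed the threshold in several alternative fits. The adjusted p was 0.075 to 0.091 by limma without replicate 2 labelled Lv-Ctrl or without replicate 1, 2 or 4 labelled Lv-Piezo1. After median-ratio scaling Itgb5 was lower by a log2 fold change of -0.25 (limma adjusted p = 6.4e-04). After quantile normalization its log2 fold change was -0.03 and did not pass (limma adjusted p = 0.28). Itgb1 was thus below Itgb5 in each sample labelled Lv-Ctrl, at 0.67 to 0.84 of its level, and above it in each sample labelled Lv-Piezo1, at 1.13 to 1.31 times its level.

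Itgb3 (ENSRNOG00000048449), which pairs with Itgav and, in platelets, with Itga2b, was the 1 member that was called. It measured 0.37, 0.23, 0.11 and 0.3 TPM under the label Lv-Ctrl and 1.4, 1.48, 2.27 and 2.08 TPM under the label Lv-Piezo1. The log2 fold change was 1.16 (SE 0.15, limma adjusted p = 1.7e-04) and 1.08 after scaling. It depended on the processing, with 0.96 and no call after quantile normalization and 2.47 with a pseudocount of 0.1. With a mean of 1.03 TPM over the 8 samples, Itgb3 entered the test only through the group in which it was high, so its call is a description of a low transcript and not a count in favour of the members. Its share of all β subunit TPM was 0.02% ± 0.01 under the label Lv-Ctrl and 0.15% ± 0.03 under the label Lv-Piezo1 (SD, n = 4 each). The platelet markers Gp9, Pf4, Gp1bb and Ppbp summed to at most 0.42 TPM in any sample.

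**Figure D1:**
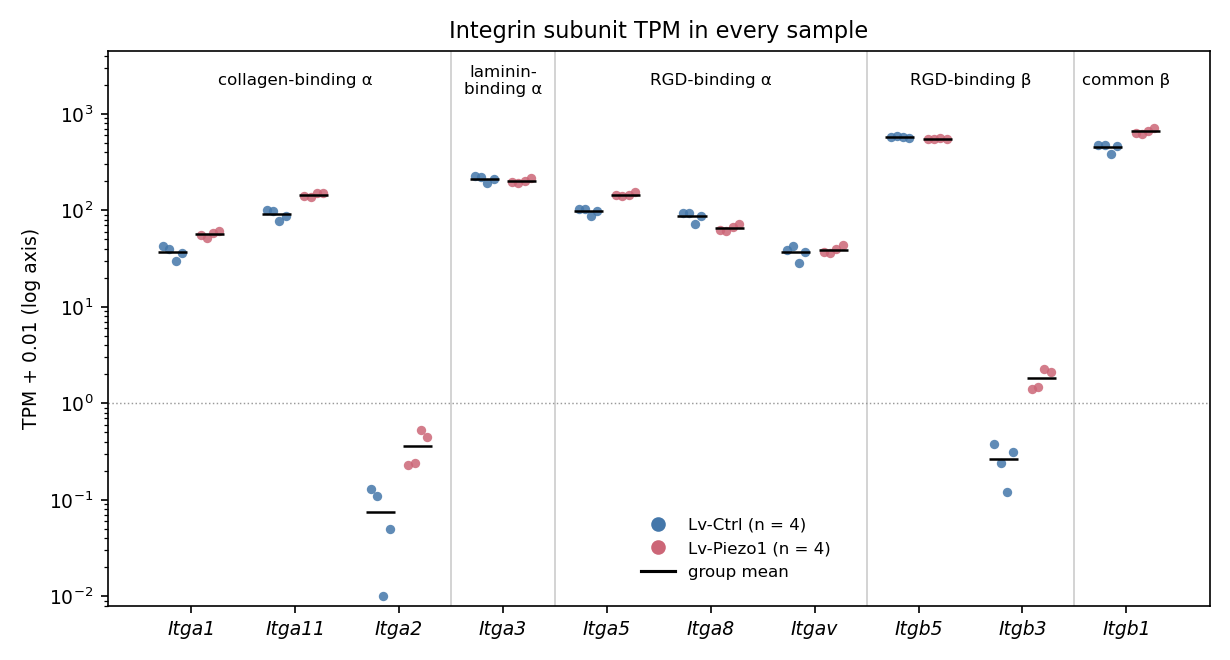
TPM of the 10 integrin subunits on a log axis (0.01 TPM was added so that a value of 0 can be drawn), grouped by binding class, with 1 point per sample, Lv-Ctrl in blue, Lv-Piezo1 in red and a bar at the group mean (n = 4 each). Itga1, Itga11, Itga5 and Itgb1 lie wholly higher in red, Itga3, Itga8 and Itgav overlap, and Itga2 and the blue points of Itgb3 lie below the dotted line at 1 TPM.

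Of the 8 members with a mean of at least 1 TPM in both groups, 4 rose (Itga1, Itga11, Itga5 and Itgb1), 2 fell (Itga8 and Itgb5) and 2 did not pass the test (Itga3 and Itgav). By limma with the fold threshold 0 of these 8 were called, against 7.67% of all tested genes. An adjusted p below 0.05 was reached by 6 of the 8, against 58.2% of all tested genes (41.9% higher and 16.3% lower). Without overlap of the groups, 4 were higher and 1 lower, where 54.2% of all tested genes did not overlap (39.8% higher and 14.5% lower). After median-ratio scaling 4 rose and 3 fell, Itga3 now among the latter, against 26.7% and 29.2% of all genes. With scaled values the groups of 4 members lay apart with Lv-Piezo1 higher and of 3 with Lv-Piezo1 lower, against 51.4% of all genes without overlap (24.8% higher and 26.7% lower). The median log2 fold change of the 8 was 0.32 before and 0.15 after scaling, against 0.14 and -0.02 for all genes. Counts of this size say nothing particular about the members, and what they show is the split by subunit.

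**Figure D2:**
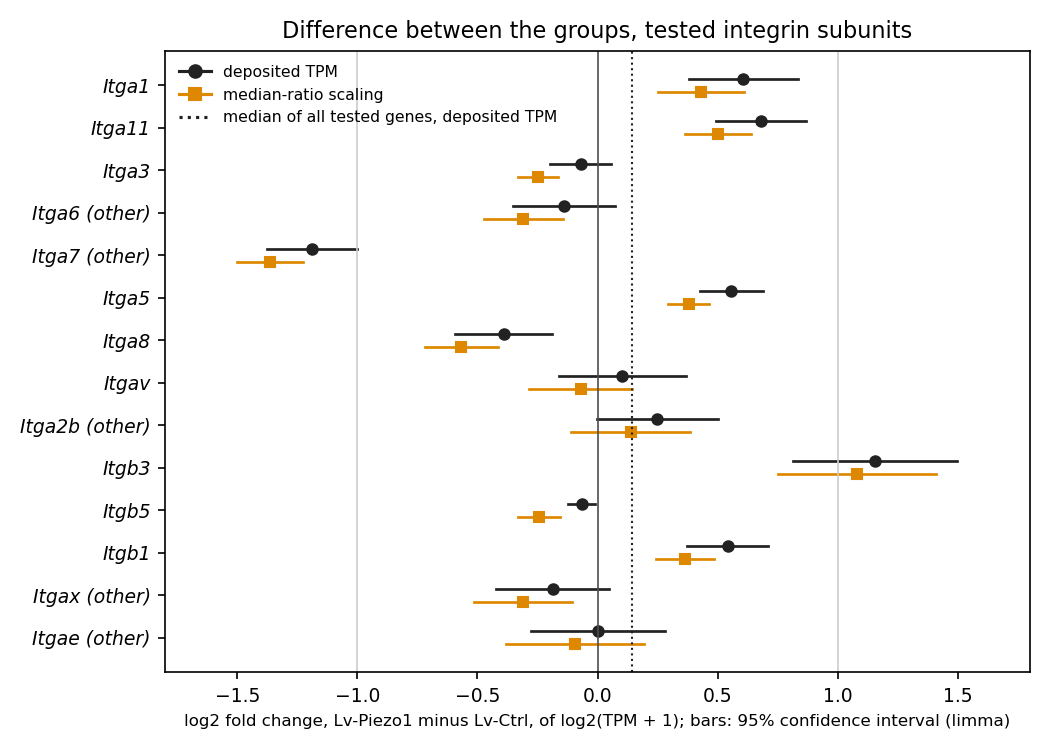
Log2 fold change of log2(TPM + 1), samples labelled Lv-Piezo1 minus samples labelled Lv-Ctrl, with its 95% confidence interval from limma for the 9 tested members and 5 other tested integrin subunits, on deposited TPM (black circles) and after median-ratio scaling (orange squares). The dotted line marks the median of all tested genes at 0.14, and grey lines mark a log2 fold change of 1 in each direction, which Itga7 and Itgb3 pass.

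The makeup of the α subunits differed between the groups although their total did not separate. All 18 α subunit genes together had 694 ± 67.4 TPM under the label Lv-Ctrl and 724 ± 41.9 TPM under the label Lv-Piezo1 (SD, n = 4 each), and these totals of deposited values overlapped. Collagen-binding subunits, Itga10 included as well, took 18.4% ± 0.69 of that total under the label Lv-Ctrl and 28.0% ± 0.57 under the label Lv-Piezo1. Laminin-binding subunits, Itga6 and Itga7 included, went from 48.9% ± 0.79 to 36.6% ± 0.35, and RGD-binding ones, Itga2b included, from 32.1% ± 0.45 to 34.8% ± 0.23 (SD, n = 4 each). In none of these 3 classes did the groups overlap. These shares are a description without a test, and they do not depend on how a sample was scaled, although a larger share of 1 class must lower the others. Within the RGD class the small net step held opposite ones, as Itga5 went from 14.2% to 20.1% and Itga8 from 12.5% to 9.07%. Itga3 itself took 30.6% ± 1.02 and 27.9% ± 0.29 (SD, n = 4 each), so most of the step of the laminin class lay in a subunit that is no member, Itga7, with 15.7% ± 0.18 and 6.51% ± 0.16.

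**Figure D3:**
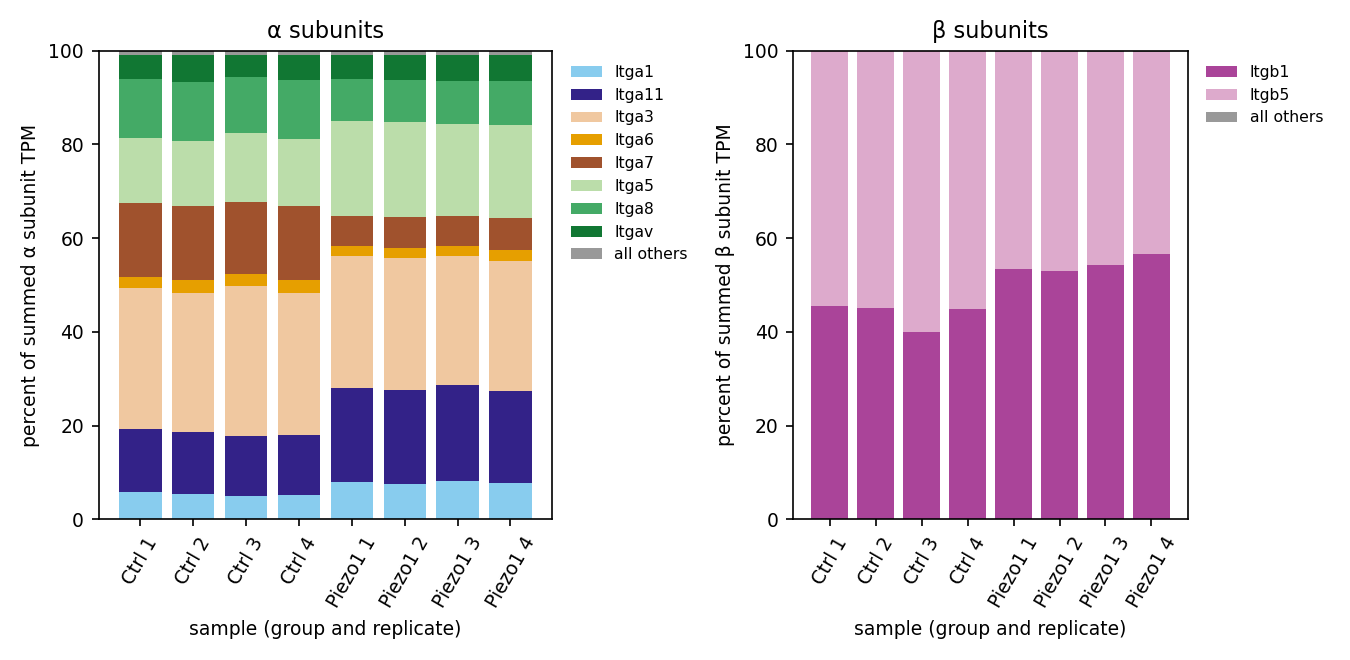
Share of each subunit in the summed TPM of all α subunits (left) and of all β subunits (right), in percent, with 1 stacked bar per sample of the groups labelled Lv-Ctrl and Lv-Piezo1. The collagen-binding subunits (blue) widen from 18.4% to 28.0% on average, Itga7 (brown) narrows from 15.7% to 6.51%, and Itgb1 exceeds Itgb5 in the bars labelled Piezo1.

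All 8 β subunit genes together summed to 1026 ± 43.5 TPM under the label Lv-Ctrl and 1207 ± 40.7 TPM under the label Lv-Piezo1 (SD, n = 4 each), without overlap. Like the α totals, this sum was taken on the deposited values only, so it carries the shift of all genes. Itgb1 held 43.9% ± 2.60 of this sum in the first group and 54.3% ± 1.62 in the second, and Itgb5 held nearly all of the rest. In the order of levels, Itgb5, Itgb1 and Itga3 led under the label Lv-Ctrl, each clear of the next. Itga5, Itga11 and Itga8 followed with Itga7 between 86.6 and 109 TPM on average, and neighbours among these 4 overlapped in their samples, as did Itga1 and Itgav below them. In the samples labelled Lv-Piezo1 the order was Itgb1, Itgb5 and Itga3, followed by Itga11 and Itga5, which overlapped at 145 TPM each on average. Itga8, Itga1 and Itga7 came next with overlap between neighbours, and Itgav lay below them.

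Single samples lay low or high for most of the members. Replicate 3 was the lowest sample labelled Lv-Ctrl for 8 of the 9 tested members, and for 48.8% of all tested genes. In this sample Itgav stood at 71.7% and Itga1 at 76.5% of the mean of the other samples labelled Lv-Ctrl, whereas Itgb5 stood at 101%. Replicate 4 was the highest sample labelled Lv-Piezo1 for 7 of the 9, and for 42.7% of all tested genes. After scaling Itgav still stood at 77.2% and Itga1 at 82.3% in replicate 3 labelled Lv-Ctrl. Without this sample the log2 fold changes were 0.51 for Itga1, 0.60 for Itga11, 0.50 for Itga5 and 0.47 for Itgb1, and Itga8 had -0.47.

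The remaining 16 integrin subunit genes hold 1 that was called. Itga7, the laminin receptor subunit best known from skeletal and smooth muscle, measured 118, 116.5, 92.5 and 109 TPM under the label Lv-Ctrl and 45.4, 44.6, 46.1 and 52.5 TPM under the label Lv-Piezo1. Its groups lay far apart, with a log2 fold change of -1.19 (SE 0.08, limma adjusted p = 3e-06) and of -1.36 after scaling. Against Itga3 in the same sample its ratio went from 0.51 ± 0.02 to 0.23 ± 0.01 (SD, n = 4 each). Skeletal muscle markers, 6 genes, summed to 4.01 to 25.9 TPM under the label Lv-Ctrl and 3.92 to 6.41 TPM under the label Lv-Piezo1. Of these, Myod1, Myf5 and Pax7 were at 0 in every sample, and Actn3 fell from 1.83 to 0.88 TPM on average (limma adjusted p = 0.025). Actn3 entered the test only through the group in which it was high, so it could not have counted as risen. Ckm and Mylpf did not pass the test. Ckm, Mylpf and Actn3 were highest in replicate 2 labelled Lv-Ctrl, at 13.99, 8.98 and 2.96 TPM. The contractile smooth muscle markers rose while Itga7 fell. The part of either cell type in the fall of Itga7 was not tested. Itga6, the other laminin-binding α subunit, had 18.0 ± 2.14 and 16.2 ± 1.49 TPM (SD, n = 4 each) and a log2 fold change of -0.14 (limma adjusted p = 0.23). It fell after scaling, with a log2 fold change of -0.31 (limma adjusted p = 0.0060). Itga2b had 1.398 and 1.83 TPM on average, Itgax 2.62 and 2.18 TPM, and Itgae 1.10 TPM in both groups, and none of these passed the test on the deposited values. The other 11 subunits, most of the leukocyte receptors and Itga10 of cartilage among them, stayed at or below 0.86 TPM in every sample. Of these 11, 4 had all samples labelled Lv-Piezo1 above all labelled Lv-Ctrl, 1 the reverse, and 6 overlapped. Among tested genes the shares were 39.8% higher and 14.5% lower, and no share was computed for genes below the limit for testing. At such levels a TPM rounded to 2 decimals says little, and the count says nothing particular about these subunits. In all, the 10 members held 92.2% ± 0.36 of the integrin subunit TPM under the label Lv-Ctrl and 96.3% ± 0.12 under the label Lv-Piezo1 (SD, n = 4 each).

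The ligands of the 3 classes moved unequally. Of 15 tested collagen chains 12 rose and 0 fell, against 41.9% and 16.3% of all tested genes, with a median log2 fold change of 0.48 against 0.14 for all genes. After scaling 11 rose and 1 fell, against 26.7% and 29.2% of all genes, with a median of 0.30. The called chains were Col4a3 (0.335 to 34.5 TPM), Col4a4 (0.30 to 8.97 TPM) and Col5a2 (745 to 1521 TPM), and Col5a2 was no longer called after scaling. Like Itgb3, Col4a3 and Col4a4 entered the test only through the group in which they were high, so neither could have counted as fallen. The main fibre chains Col1a1 (3282 to 5835 TPM) and Col1a2 (2316 to 3795 TPM), ligands of the receptor with Itga11, rose without being called. Of 7 tested laminin chains 5 rose, 1 fell and 0 were called, with a median log2 fold change of 0.25, and after scaling 3 rose and 1 fell, with a median of 0.07. The chain that fell was Lamb1, from 94.0 to 59.4 TPM on average. Of 13 tested RGD ligands 6 rose and 4 fell, with a median log2 fold change of 0.25, and after scaling 6 rose and 6 fell, with a median of 0.08. Those called were Tgfb3 (60.7 to 426 TPM), Fn1, which encodes fibronectin, the ligand of Itga5 (1940 to 4908 TPM), Tnc (238 to 519.6 TPM) and Npnt, which encodes the Itga8 ligand nephronectin (0.768 to 2.62 TPM), and of these Fn1 and Tgfb3 were called after scaling too. Npnt too entered the test only through the group in which it was high. Npnt and the genes not called were named after their values had been seen. Spp1, which encodes osteopontin, a ligand of receptors with Itgav, had 25125 ± 1363 and 16256 ± 578 TPM (SD, n = 4 each) and a log2 fold change of -0.63 (limma adjusted p = 4.5e-06), or -0.81 after median-ratio scaling. After quantile normalization the log2 fold change of Spp1 was 1.7e-15. That method sets values by rank within a sample and cannot show a difference of a gene that keeps its rank. It therefore does not decide whether Spp1 differed.

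Of the 21 tested genes whose products activate integrins or link them to actin, 14 rose and 2 fell, against 41.9% and 16.3% of all genes, and after scaling 10 rose and 4 fell, against 26.7% and 29.2%. The median log2 fold change was 0.29 before and 0.12 after scaling. Vinculin (Vcl), which ties talin to actin, was called higher with 86.7 ± 7.53 and 368 ± 21.4 TPM, and Ptk2b, a kinase related to focal adhesion kinase, was called lower with 24.0 ± 2.08 and 8.99 ± 0.48 TPM (SD, n = 4 each). Talin 1 (Tln1), which binds the β tail, rose from 82.3 to 125 TPM on average, and Ilk, a scaffold at the tail, from 147 to 212 TPM. Kindlin-2 (Fermt2), the other activator at the tail, had 163 and 171 TPM and did not pass the test (limma adjusted p = 0.38). Of the 6 genes listed as holding integrins inactive, 4 rose and 0 fell (3 and 2 after scaling) and 2 were called, namely Flna, the filamin that competes with talin (120 to 275 TPM), and Fabp3 (29.3 to 84.2 TPM).

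**Figure D4:**
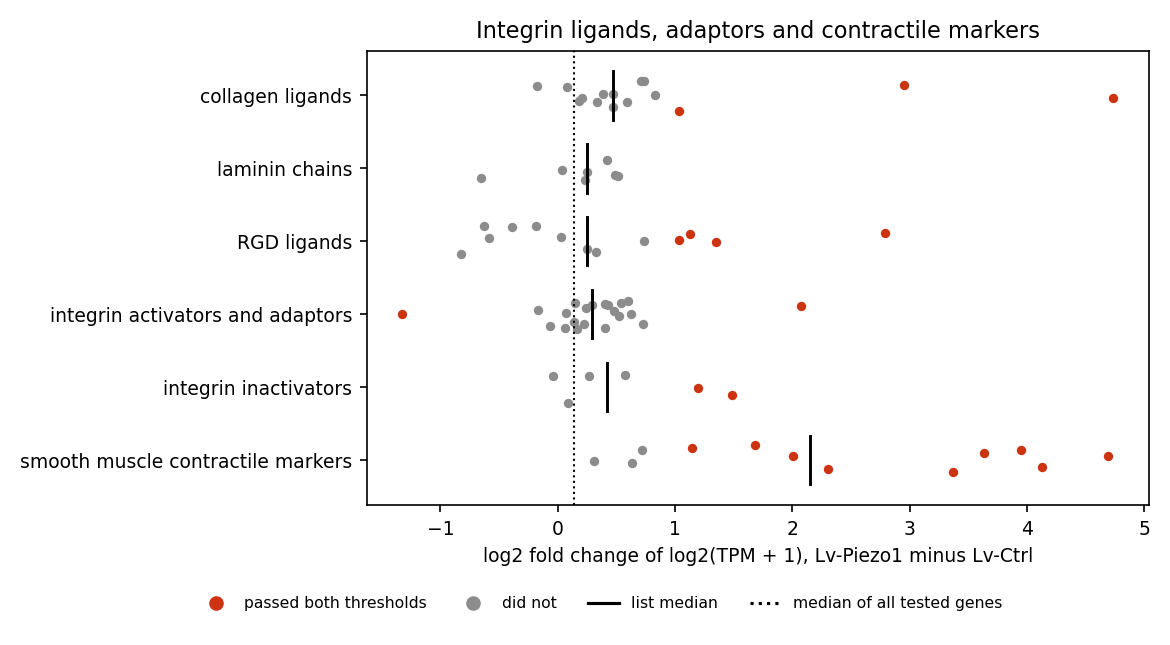
Log2 fold change of log2(TPM + 1), samples labelled Lv-Piezo1 minus samples labelled Lv-Ctrl, for the tested genes of each list, 1 point per gene, red where a gene passed both thresholds, with the list median as a black bar and the median of all tested genes (0.14) as a dotted line. The medians of the collagen, laminin and RGD ligands are 0.48, 0.25 and 0.25, that of the adaptors is 0.29, and that of the contractile markers is 2.15.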

How the data were processed

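RNA-seq was analysed for 8 samples of rat AFCs under CMS, 4 labelled Lv-Ctrl and 4 labelled Lv-Piezo1, each column of the table being matched to its sample by the sample's description. Per the study's methods, the authors filtered the reads, mapped them to the rat genome with HISAT2 and assembled transcripts with StringTie. Their deposited table holds TPM rounded to 2 decimals, with the authors' mean of each group, which was not used. The methods name FPKM, and the submitters' processing notes name the mouse build mm10 and DESeq2, although the row identifiers are rat Ensembl genes. The annotation release was not given in the sources used here, and TPM keeps no depth, so no counting error can be stated.

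log2(TPM + 1) was fitted for the 13103 genes with a mean of at least 1 TPM with limma 3.58.1 in R 4.3.3 (empirical Bayes with a trend, no block, Benjamini-Hochberg adjustment over all tested genes). Single genes were also compared by an exact two-sided permutation test over 70 relabelings. The fit was tested on simulated data. The members and the lists, written from general knowledge, were chosen with earlier results of these data known, and no test over a list was made. Named are all members, the other tested subunits, and up to 3 called genes per list and direction. Other genes, uncalled markers included, were named after their values had been seen. Members matched RefSeq by symbol, as the table used here held no Ensembl identifiers for them, and protein sequences were not compared here. Alternatives were the pseudocount, the filter on low TPM, scaling, moderation, the replicate block, the fold threshold and leaving out each sample.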

Additional observations from a re-analysis of the deposited data

Results flagged for a closer look

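In 30 groups of 4 samples (15 integrin subunits in each of the groups), Dixon's ratio of the gap to the range was examined, and in 2 groups a sample was past its 95% critical value. Chance flags about 1 group in 20. Itga6 had 14.8 TPM in replicate 3 labelled Lv-Ctrl, where the next sample had 18.9 TPM. Itgae had 0.91 TPM in replicate 1 labelled Lv-Piezo1, where the next sample had 1.16 TPM. Neither is among the 10 members.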

How the results depend on the processing

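Of 206 alternative values for single subunits, 179 kept their direction and their side of an adjusted p of 0.05, and 0 reversed a difference that had passed. Those that changed side were Itgb5 (adjusted p 0.28 with quantile normalization, 0.13 without a trend, 0.12 with the replicate block and 0.075 to 0.091 without replicate 2 labelled Lv-Ctrl or replicate 1, 2 or 4 labelled Lv-Piezo1), Itga3 (passed with median-ratio scaling), Itga6 and Itgax (passed with median-ratio scaling, quantile normalization and without replicate 3 labelled Lv-Ctrl) and Itga2b (passed without a trend and without replicate 1 labelled Lv-Ctrl). Itgav and Itgae, which did not pass, changed sign in some fits. The count of members called was 1 on the deposited values, 0 with a mean TPM of at least 5, which leaves Itgb3 out, and 7 without the fold threshold. It was 0 with quantile normalization, where the log2 fold change of Itgb3 was 0.96, below the fold threshold. With adjusted p alone, 2 members were lower, against 3 with median-ratio scaling. The count was 1 with quantile normalization, without a trend and with the replicate block, and 1 to 2 when samples were left out. Members that rose numbered 4 to 6 in every alternative run. Over all genes, 1005 were called, 628 with a mean TPM of at least 5 (372 of them higher, against 644) and 7626 without the fold threshold. Of the called genes 64.1% were higher, which became 51.4% with median-ratio scaling and 48.8% with quantile normalization. Leaving out 1 sample moved the class shares of α TPM by less than the spread between samples. The replicate numbers did not pair the samples (correlations of same-numbered deviations -0.06 to -0.01). With the replicate block, no member other than Itgb5 changed its side of an adjusted p of 0.05, and no call of a member changed. TPM without depth limits what can be said of Itga2 and Itgb3.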
